A study of Homo sapiens with 2 samples.

Results

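The genes described here encode the heterogeneous nuclear ribonucleoproteins (hnRNPs) and the serine/arginine-rich splicing factors (SRSFs). They were taken by name, as every symbol that begins with HNRNP or with SRSF and a number and has no hyphen. This gave 41 of the 24462 gene symbols in the files, 29 hnRNP and 12 SRSF symbols, of which 34 averaged 30 counts or more across the 2 libraries and were compared (23 hnRNP and 11 SRSF). The cells were A549, an established line from a human lung adenocarcinoma, transfected either with control siRNAs or with siRNAs against ADGRF4, an adhesion G protein-coupled receptor. The study asked how silencing this receptor changes gene expression. Each treatment has 1 library, called the control and the knockdown library below, so no difference has a replicate check and no p-value is given. The labels name the Lexogen QuantSeq kit and total RNA, and give neither the duration of transfection nor the siRNA sequences.

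Both families bind pre-mRNA and help decide which exons are joined. SR proteins carry RNA recognition motifs and a tail rich in arginine-serine repeats, and mostly favour the use of the exon they bind. hnRNPs coat nascent transcripts through RNA recognition or KH motifs and often act in the opposite direction, by silencing splice sites. Several proteins of both families limit their own mRNA through exons or introns that expose it to decay, and several shuttle to the cytoplasm, where they act in mRNA export, translation and stability. A count per gene from 3' ends does not show which exons were joined.

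Total depth was 10396047 counts for the control and 9825320 for the knockdown library. ADGRF4 had 3 and 1 counts, at or under the floor of 3 counts used here for absent genes. These counts do not show its silencing, so the targeted gene does not check the labels. Below, after silencing means in the knockdown library as labelled. All 10 epithelial and A549 markers examined passed the count limit, but their levels differed between the libraries. By the 1.5-fold limit explained below 6 were lower and 2 higher, against 22.3% lower and 21.1% higher among all compared symbols. Their log2 ratios ran from -2.28 (AKR1B10) to 1.41 (KRT7). The markers summed to 14407 CPM in control cells and 14404 CPM after silencing. As a single marker had up to 79367 counts, this sum follows chiefly the most abundant markers and does not show that each was stable. The part of the marker shifts in the ratios below was not tested. Markers of alveolar type II cells were nearly absent: none of 6 passed the limit, 3 were at 0 in both libraries, and no one of them had over 9 counts. Of 11 leukocyte, fibroblast and endothelial markers, CD14 and COL1A1 alone passed the limit, with at most 50 counts for any marker.

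Most of these splicing regulators had a lower level in the knockdown library, and calls of lower genes were chiefly hnRNP genes. Levels are given as CPM, a gene's counts relative to library size, with library sizes adjusted by TMM (trimmed mean of M values). The kit reads transcript ends, so levels were not divided by transcript length. The log2 ratio is that of the knockdown over the control library, taken on CPM + 1. A member is called higher or lower when it was at least 1.5-fold apart on this scale. Of the 23 compared hnRNP genes, 11 were lower, 1 was higher and 11 lay between. Of the 11 compared SRSF genes, 1 was lower and 10 lay between. By the same limit, 22.3% of the 11771 symbols compared in all lay lower and 21.1% higher, against 12 and 1 of the 34 members. At 2-fold, 6 members were lower and 0 higher, where the background was 10.4% lower and 7.84% higher. The median log2 ratio was -0.56 for the hnRNP genes, -0.27 for the SRSF genes and -0.016 for all compared symbols. The hnRNP median was -0.34 at a mean of 10 counts or more and -0.30 with no count limit, and the SRSF median was -0.29 in both cases. Below 0 lay 20 of 23 hnRNP genes and 8 of 11 SRSF genes, against 51.0% of all compared symbols. Centred on 3' base composition, as described below, these were 14 of 23 and 6 of 11, against 49.9%. Called lower after this centring were 7 of the 23 hnRNP genes and 2 of the 11 SRSF genes, against 19.1% of symbols.

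Abundant symbols as a whole leaned the other way. Of the 1957 symbols that averaged 1000 counts or more, 28.5% were 1.5-fold higher and 13.6% lower, with a median log2 ratio of 0.18. Of the 23 members this abundant, 1 was higher and 5 lower, with a median of -0.27. These sets also differed in 3' GC content, described below, with medians of 42.7% for the abundant symbols and 35% for the abundant members. The part of this difference in their ratios was not tested. In bulk RNA, fewer cells that express a gene and less of its RNA per cell cannot be told apart.

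**Figure D1:**
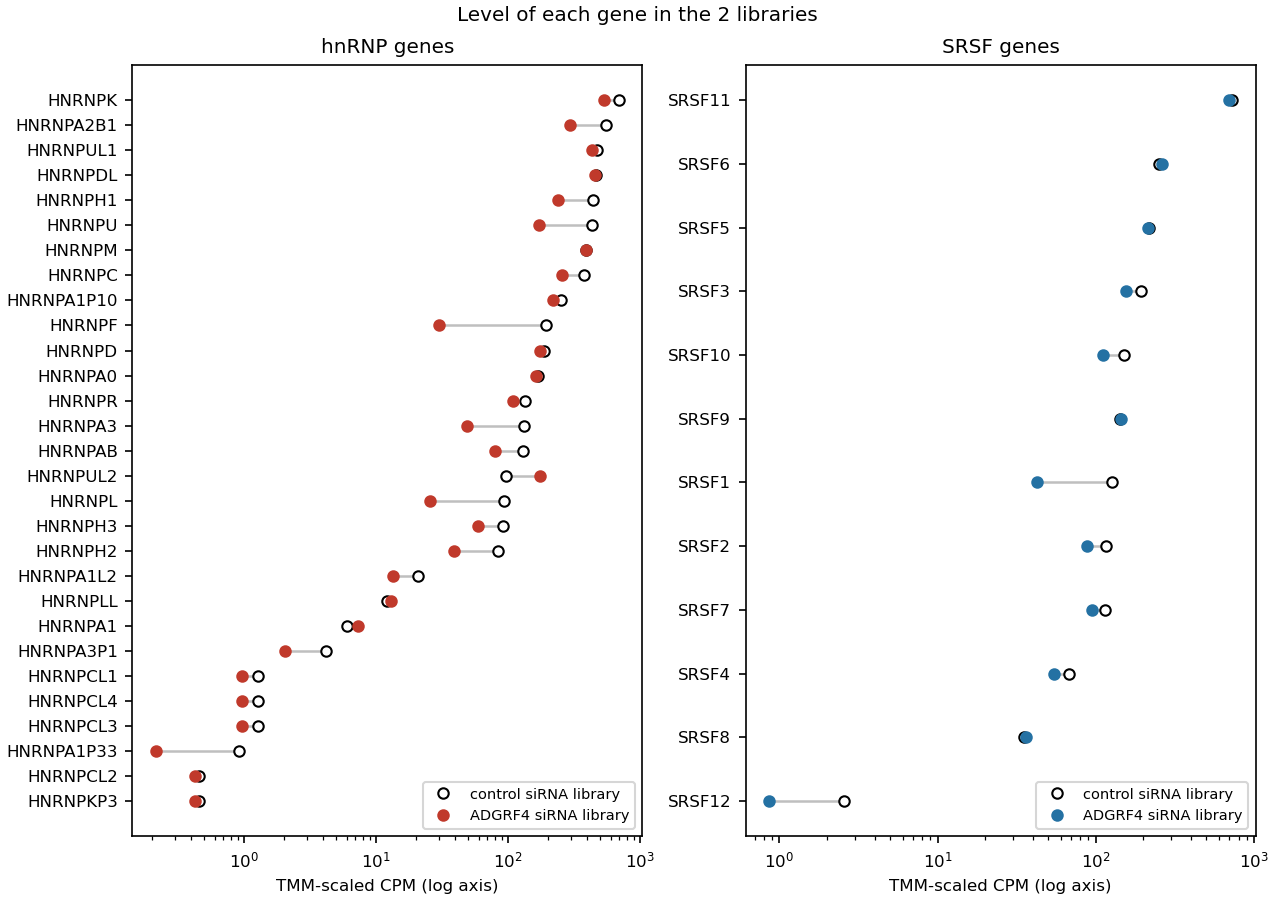
Level of every member in the control library (open circles) and the knockdown library (filled circles), in TMM-scaled CPM on a log axis, with hnRNP genes on the left and SRSF genes on the right, ordered by their control level. Grey lines join the values of a gene, and the longest among abundant genes belong to HNRNPF, HNRNPL, HNRNPA3, HNRNPU and SRSF1. The other compared SRSF genes differ by at most 1.36-fold.

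Summed over its 29 symbols, the hnRNP family made up 5461 CPM in control cells and 3951 CPM after silencing, 1.38-fold lower with an exact (Clopper-Pearson) 95% interval of 1.36 to 1.40. Such intervals, printed after folds from here on, cover counting error only. Reads amplified from 1 molecule are not independent, and the files carry no molecular identifiers. The 12 SRSF symbols made up 2149 and 1906 CPM, 1.13-fold lower (1.11 to 1.15). HNRNPK was the most abundant hnRNP symbol in both libraries, with 12.8% of the family's counts in control cells and 13.5% after silencing. SRSF11 alone held 34.1% and 36.8% of all SRSF counts. The order of abundance below the top changed: HNRNPA2B1 went from the second to the fifth place among hnRNP symbols, HNRNPU from the sixth to the eleventh and HNRNPF from the tenth to the eighteenth, whereas HNRNPUL2 went from the sixteenth to the ninth.

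The H and F genes, which encode closely related proteins that bind runs of guanines, were lower in all 4 cases. HNRNPF had 2121 counts (194 CPM) in control cells and 282 counts (30.2 CPM) after ADGRF4 silencing, 6.41-fold lower (5.66 to 7.29). It had the lowest log2 ratio of all members, -2.64, and 0.416% of all compared symbols lay at or below it. HNRNPH1, the most abundant of the group, had 4856 and 2223 counts, 1.86-fold lower (1.77 to 1.96). HNRNPH2, whose gene lies on the X chromosome, had 923 and 363 counts, 2.17-fold lower (1.92 to 2.45). HNRNPH3 had 1001 and 552 counts, 1.55-fold lower (1.39 to 1.72). The 4 genes together made up 813 and 366 CPM, 2.22-fold lower (2.13 to 2.31), and HNRNPF was the only one with a smaller share of the group's counts after silencing. HNRNPH1 and HNRNPH3 no longer passed 1.5-fold when ratios were centred on base composition (log2 -0.56 and -0.40, described below). HNRNPH2 lies within the annotated read-through gene RPL36A-HNRNPH2, whose reads it can share.

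HNRNPL, which binds CA repeats, had 1028 counts (93.9 CPM) in control cells and 241 (25.8 CPM) after ADGRF4 silencing, 3.64-fold lower (3.16 to 4.20). Its paralog HNRNPLL, known for switching exons of the CD45 mRNA in lymphocytes, was far less abundant, with 132 and 122 counts and a ratio of 1.08 (0.841 to 1.40). The interval of HNRNPLL lies wholly above 0.317, the upper bound of the ratio of HNRNPL. The ratios of these paralogs thus lay apart by more than their counting intervals, which cover no variation between replicate libraries.

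The A and B type genes encode splicing silencers with a pair of RNA recognition motifs and a glycine-rich tail, and they were split. HNRNPA3 had 1463 and 460 counts, 2.71-fold lower (2.44 to 3.02). HNRNPA2B1, the second most abundant hnRNP symbol of the control library, had 6053 and 2778 counts, 1.86-fold lower (1.78 to 1.94). HNRNPA1L2, a gene derived from a copy of HNRNPA1, had 230 and 127 counts, 1.54-fold lower (1.24 to 1.93). It lay so close to the limit that it was not called with a pseudocount of 5, with the control library thinned or with centring on base composition. HNRNPA0, which binds AU-rich elements, had 1868 and 1517 counts and lay 1.05-fold lower (0.981 to 1.12).

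HNRNPA1, the founding gene of this type, had only 66 and 68 counts, while its processed pseudogene HNRNPA1P10 had 2745 and 2037. HNRNPA1 has 74 named processed pseudogenes in GENCODE 29. The coding sequence of an annotated HNRNPA1 transcript (924 bases) and the copy (962 bases) are identical at 919 aligned positions, with 4 substitutions and 40 bases in gaps. The labels do not say how reads with several map positions were treated, so the counts of these symbols are uncertain. The alignment used the coding sequence, while the kit reads transcript ends. It therefore does not show whether reads of parent and copy can be told apart. Summed, parent and copy gave 257 and 226 CPM, 1.14-fold lower (1.08 to 1.21), between the limits. The copies HNRNPA3P1 (46 and 19 counts, 2.06-fold lower, 1.19 to 3.73), HNRNPA1P33 (10 and 2 counts) and HNRNPKP3 (5 and 4 counts) were little read. HNRNPA3P1 is among the 11 hnRNP symbols called lower, but not with a pseudocount of 5.

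The U type genes went in different directions, with log2 ratios from -1.33 to 0.86. HNRNPU, which encodes the nuclear scaffold protein also called SAF-A, had 4781 counts (437 CPM) and 1620 counts (174 CPM), 2.52-fold lower (2.38 to 2.66). HNRNPUL1 had 5201 and 4068 counts, 1.09-fold lower (1.05 to 1.14). HNRNPUL2, which with HNRNPUL1 is known from the response to DNA breaks, had 1052 counts (96.1 CPM) and 1636 counts (175 CPM), 1.82-fold higher (1.69 to 1.97). It was the only member called higher, under every scaling tried. The separately listed transcript HNRNPU-AS1 had 1832 and 1386 counts, 1.13-fold lower (1.05 to 1.21), and the neighbour COX20, which overlaps HNRNPU on the other strand, had 1518 and 1195. The read-through symbol HNRNPUL2-BSCL2 was 1.69-fold higher (1.58 to 1.80), with 1515 and 2178 counts; these are close to the 1463 and 2139 counts of BSCL2, the downstream gene, which was 1.71-fold higher. HNRNPUL1 overlaps TGFB1 on the other strand, which had 130 and 304 counts.

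**Figure D2:**
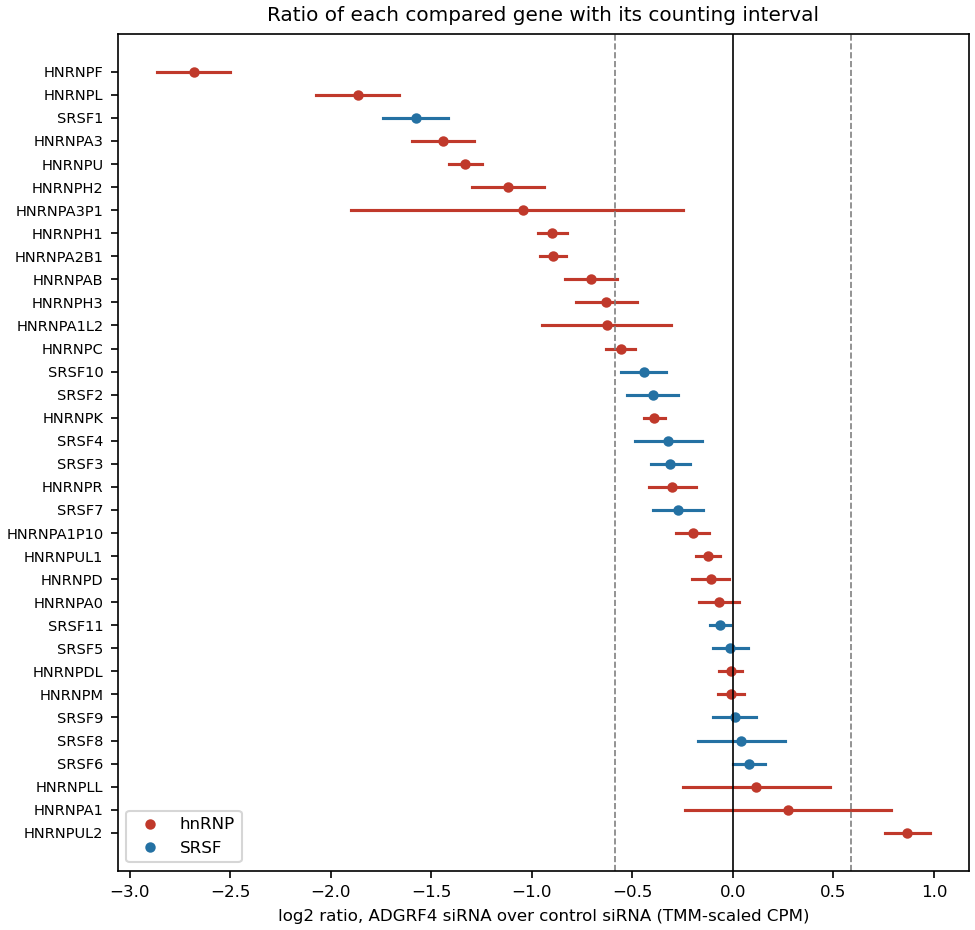
Ratio of the knockdown over the control library on a log2 axis for the 34 compared members, without a pseudocount, with the exact 95% counting interval as a bar. Dashed lines mark 1.5-fold; HNRNPF, HNRNPL, SRSF1, HNRNPA3 and HNRNPU lie at the low end, HNRNPUL2 stands alone at the high end, and the bar of HNRNPA3P1 is wide because it had 46 and 19 counts.

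Of the remaining hnRNP genes, HNRNPAB, a relative of the AU-rich element binding protein HNRNPD, was called lower. It had 1419 and 741 counts, 1.63-fold lower (1.49 to 1.79), with a log2 ratio of -0.54 after centring on base composition. HNRNPD itself (2073 and 1636 counts) and HNRNPDL (5087 and 4302 counts) were 1.08-fold (1.01 to 1.15) and 1.01-fold lower (0.968 to 1.05). HNRNPC, which binds uridine tracts and is known to keep Alu elements from being spliced in as exons, had 4135 and 2394 counts, 1.47-fold lower (1.40 to 1.55), just inside the limit. HNRNPK, a KH-domain protein that binds cytosine-rich RNA, had 7625 and 4961 counts, 1.31-fold lower (1.26 to 1.36). HNRNPR, a relative of SYNCRIP, had 1487 and 1029 counts, 1.23-fold lower (1.14 to 1.34). HNRNPM, which binds GU-rich RNA, had 4317 and 3659 counts and a fold of 1.01 lower (0.962 to 1.05). Equal values for HNRNPM and HNRNPDL in both libraries thus lie within counting error, beside the 6.41-fold difference of HNRNPF.

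The C-like genes were barely read. HNRNPCL1, HNRNPCL3 and HNRNPCL4 had the same counts, 14 and 9 each, and HNRNPCL2 had 5 and 4. These genes are near-identical copies, so their counts are uncertain. SRSF12 was the only SRSF gene under the count limit, with 28 and 8 counts.

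Among the SR proteins, SRSF1 stood apart. This proto-oncogene, the first SR protein described, had 1396 counts (128 CPM) in control cells and 399 (42.8 CPM) after ADGRF4 silencing, 2.98-fold lower (2.67 to 3.34). Its closest paralog SRSF9 had 1567 and 1344 counts, with a ratio of 1.01 (0.935 to 1.08). The other SR genes with a pair of RNA recognition motifs, SRSF4, SRSF5 and SRSF6, lay between 1.25-fold lower and 1.06-fold higher. SRSF4 had 747 and 510 counts, SRSF5 2365 and 1997, and SRSF6, the second most abundant SRSF gene, 2733 and 2461. Without SRSF1, the compared SRSF genes therefore spanned a narrow range before centring, from 1.36-fold lower to 1.06-fold higher. After centring on base composition, described below, SRSF10 had a log2 ratio of -1.02, beside -1.22 for SRSF1.

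The 6 compared SR genes with a single RNA recognition motif, which leaves out SRSF12, were all between the limits. SRSF2, a protein of nuclear speckles, had 1277 and 826 counts, 1.32-fold lower (1.21 to 1.44). Its retrotransposed relative SRSF8 had 384 and 337 counts, with a ratio of 1.03 (0.887 to 1.19). SRSF3 and SRSF7, adapters for mRNA export, were 1.24-fold (1.16 to 1.33) and 1.21-fold lower (1.11 to 1.32), from 2105 and 1247 control counts to 1446 and 880. SRSF10, which turns into a general splicing repressor when dephosphorylated, had 1655 and 1037 counts over its pair of rows, 1.36-fold lower (1.26 to 1.47). SRSF11 had the highest level of all 41 members, 733 and 701 CPM, and differed by 1.05-fold (1.01 to 1.08). SRSF6, SRSF8, SRSF9 and HNRNPLL, whose log2 ratios of 0.0086 to 0.11 were above 0, lay below 0 when libraries were scaled by their total counts.

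**Figure D3:**
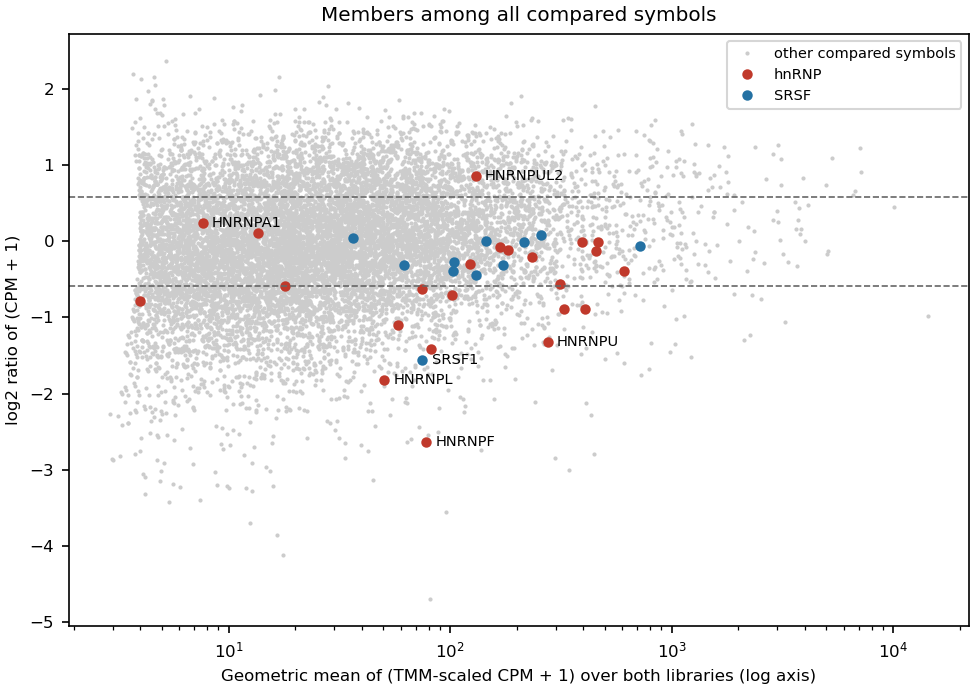
The log2 ratio of CPM + 1 against the geometric mean of CPM + 1 over both libraries (log axis) for all 11771 compared symbols in grey, with hnRNP genes in red and SRSF genes in blue; dashed lines mark 1.5-fold. Most members lie below 0 at levels where the grey cloud extends to both sides, and HNRNPUL2 is the only one above the upper line.

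In these libraries the ratio rises with the GC content of the transcript's 3' end. The 34 members have AT-rich 3' ends, with a median GC content of 34.7% over the closing 300 bases of each gene's longest transcript, against 40.3% for all compared symbols with a value. Over the 34 members Pearson's r was 0.11 and Spearman's rho 0.040, with a rho of 0.25 over the 23 hnRNP genes and -0.38 over the 11 SRSF genes, against 0.44 and 0.46 over 11139 symbols. These correlations are across genes of the same library pair and are given as a description. When each ratio was centred on the median of symbols of similar 3' GC content, 9 members were 1.5-fold lower and 1 higher, where the background was 19.1% lower and 15.2% higher. The calls of HNRNPH1, HNRNPH3, HNRNPAB and HNRNPA1L2 ended, and SRSF10 was called lower at -1.02, since its longest transcript has a 3' GC content of 55.7%. The centred log2 ratios were -2.42 for HNRNPF, -1.53 for HNRNPL, -1.22 for SRSF1, -1.08 for HNRNPA3, -1.04 for HNRNPU and 1.08 for HNRNPUL2. The median became -0.35 for hnRNP genes and -0.049 for SRSF genes. The centred hnRNP ratios had quartiles of -0.73 and 0.14.

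**Figure D4:**
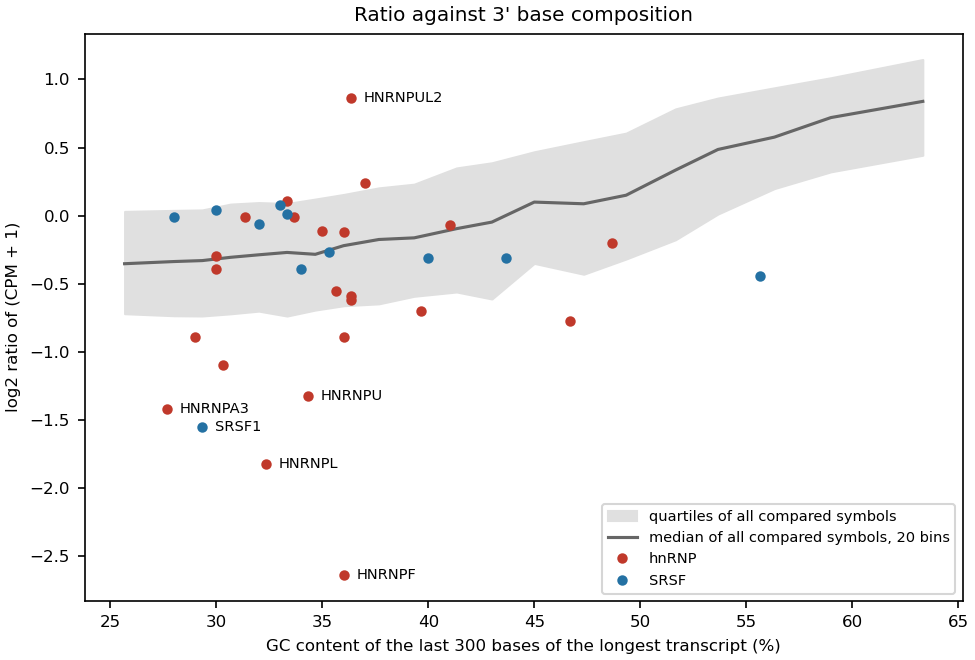
The log2 ratio of CPM + 1 against the 3' GC content defined above, in percent; the grey line and band give the median and quartiles of all compared symbols in 20 bins, and points are hnRNP genes (red) and SRSF genes (blue). HNRNPF, HNRNPL, SRSF1, HNRNPA3 and HNRNPU lie under the band for their base composition, and HNRNPUL2 above it.

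Library scaling moved all ratios together. Under total-count scaling the median of all compared symbols was -0.16 instead of -0.016, with 27.7% of symbols 1.5-fold lower and 16.1% higher. Of the members 14 were then lower, HNRNPC and SRSF10 being added, and 1 higher. Exons of 9 hnRNP and 3 SRSF genes are overlapped by an annotated gene on the other strand, among them HNRNPA2B1 by CBX3, HNRNPH3 by RUFY2, SRSF2 by MFSD11 and SRSF9 by GATC. The labels do not say whether counting used strand, so reads of such pairs may be mixed.

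Promoter sequences from RefSeq (GRCh38.p14), 250 bases before to 50 bases after an annotated start, were found for 34 of the 41 member symbols in 48 windows. They are shown for the lowest hnRNP gene, the lowest SRSF gene, HNRNPA3, which holds an E-box, and HNRNPUL2, the only member called higher; HNRNPF has a further start that is not shown. Each is written 5' to 3' on the strand of the gene, and capitals mark a match to an E-box (CACGTG, bound by MYC and related factors), a cAMP response element (TGACGTCA) or an ETS motif (CCGGAAG), searched on both strands; none of these motifs contains another.
HNRNPF, chr10:43408808-43409107, minus strand: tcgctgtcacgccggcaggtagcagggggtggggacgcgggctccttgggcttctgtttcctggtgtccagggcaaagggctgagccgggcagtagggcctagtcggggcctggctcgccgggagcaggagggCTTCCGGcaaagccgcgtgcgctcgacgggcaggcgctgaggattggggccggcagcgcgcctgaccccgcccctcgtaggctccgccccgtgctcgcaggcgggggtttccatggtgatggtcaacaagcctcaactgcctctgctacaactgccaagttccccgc
SRSF1, chr17:58007197-58007496, minus strand: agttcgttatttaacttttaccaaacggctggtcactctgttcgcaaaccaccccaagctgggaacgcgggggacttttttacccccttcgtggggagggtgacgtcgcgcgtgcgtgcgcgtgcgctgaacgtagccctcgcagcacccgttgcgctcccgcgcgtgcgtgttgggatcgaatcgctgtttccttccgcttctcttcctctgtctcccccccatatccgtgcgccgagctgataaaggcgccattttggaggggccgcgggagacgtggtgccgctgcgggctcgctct
HNRNPA3, chr2:177212544-177212843, plus strand: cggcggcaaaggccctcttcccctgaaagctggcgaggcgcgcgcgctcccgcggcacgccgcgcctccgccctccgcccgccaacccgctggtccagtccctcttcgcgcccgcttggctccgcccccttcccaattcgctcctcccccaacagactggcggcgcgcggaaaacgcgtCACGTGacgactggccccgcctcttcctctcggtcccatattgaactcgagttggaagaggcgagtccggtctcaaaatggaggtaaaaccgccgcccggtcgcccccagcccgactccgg
HNRNPUL2, chr11:62727408-62727707, minus strand: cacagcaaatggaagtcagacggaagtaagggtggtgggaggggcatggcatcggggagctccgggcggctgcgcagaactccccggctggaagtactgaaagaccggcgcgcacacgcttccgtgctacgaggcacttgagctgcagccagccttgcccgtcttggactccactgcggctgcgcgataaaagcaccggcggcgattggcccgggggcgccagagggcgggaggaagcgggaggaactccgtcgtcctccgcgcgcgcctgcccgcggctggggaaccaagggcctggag
The HNRNPF window holds an ETS motif on the reverse strand that begins 117 bases before the start, and the HNRNPA3 window an E-box 71 bases before it. The letters of these 3 motifs are not in the SRSF1 and HNRNPUL2 windows.

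An E-box was found in 8 of 48 member windows (16.7%), against 7.26% of all 35116 windows. These cover 27305 symbols, whether compared here or not, and were not matched to the members for expression or base composition. The 7 member symbols that hold an E-box are HNRNPA3, HNRNPD, HNRNPDL, HNRNPH2, HNRNPH3, HNRNPM and HNRNPUL1. By call, 3 of the 11 lower members with a window held an E-box, as did 4 of the 18 between the limits. An ETS motif was in 10.4% of member windows and 10.3% of all, and the cAMP response element in 0 of 48 and 1.85%. MYC, a known activator of several genes of these families, SRSF1 among them, had 138 and 21 counts, 5.60-fold lower (3.52 to 9.34). MYC was chosen with its counts known, and its part in the ratios was not tested.

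Lists of related genes are described by their counts, to be read against the 22.3% lower and 21.1% higher among all compared symbols; differences between lists were not tested. Of 10 compared hnRNP proteins that go by other symbols, 5 were 1.5-fold higher and 1 lower, with a median log2 ratio of 0.35. RBMX, also called hnRNP G, was 2.07-fold higher (2.01 to 2.14) and PTBP1, or hnRNP I, which binds pyrimidine tracts, 1.88-fold higher (1.81 to 1.96), from 4159 to 6673 counts. CIRBP was 1.90-fold higher and PCBP1, which binds cytosine-rich RNA, 2.13-fold lower (1.97 to 2.29). PTBP1 and CIRBP have GC-rich 3' ends, and after centring their log2 ratios were 0.071 and 0.080, while RBMX stood at 1.38 and PCBP1 at -0.75. RBMX was then the only gene of this list still called higher.

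Among 15 kinases, phosphatases and importers that act on these proteins, 5 were higher, 2 lower and 8 between (median -0.10), against 21.1% higher and 22.3% lower among all compared symbols. TNPO3, which imports phosphorylated SR proteins into the nucleus, was 1.99-fold lower (1.80 to 2.21). TNPO2, an importer of the transportin family that carries hnRNP cargo, was 2.40-fold higher (2.21 to 2.62), and the phosphatase subunits PPP1CA and PPP2CA were 1.75-fold and 1.63-fold higher, at 0.080 and 0.92 on the log2 scale after centring. Arginine methyltransferases modify glycine- and arginine-rich stretches of hnRNPs. Of 8 compared genes for these enzymes and their cofactors, 5 were higher and 1 lower (median 0.82). The lower gene encodes a cofactor, and all the higher genes encode enzymes. PRMT7 was 2.72-fold higher, PRMT2 1.97-fold, CARM1 1.96-fold and PRMT1, the main enzyme of this type, 1.91-fold higher from 3209 to 5229 counts, but PRMT1 and CARM1 stood at 0.21 and 0.24 on the log2 scale after centring.

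Of 25 SR-related genes outside the SRSF names, 6 were lower, 1 higher and 18 between (median 0.0083), a share of lower genes near the background of 22.3%. The U2AF subunits, which together mark the 3' splice site, went apart: U2AF1 was 2.43-fold lower (2.30 to 2.57) and U2AF2 2.05-fold higher (1.94 to 2.16). CCNL1, a cyclin with an RS domain, was 2.36-fold lower and TRA2B 1.99-fold lower. Of 35 other RNA-binding splicing regulators, 9 were lower, 4 higher and 22 between (median -0.29), with QKI 2.32-fold, ILF2 2.31-fold, RBM3 2.15-fold and PTBP3 1.97-fold lower. The list had a median 3' GC content of 33.7%. All symbols in the bin around 33.3% had a median log2 ratio of -0.27. After centring, QKI stood at -0.89, ILF2 at -0.86, RBM3 at -1.20 and PTBP3 at -0.68, while most of the other lower calls ended. Of 15 nonsense-mediated decay and exon junction factors, 3 were lower, 2 higher and 10 between (median -0.15). Before centring, these shares lay below the background of 22.3% lower and 21.1% higher. EIF4A3, the core helicase of the exon junction complex, had 766 and 110 counts, 5.94-fold lower (4.86 to 7.32), close to the fold of HNRNPF. SMG8 was 2.41-fold lower, SMG9 2.27-fold and RBM8A, a partner of EIF4A3, 1.75-fold higher. After centring, EIF4A3 stood at -2.25, SMG8 at -0.85, SMG9 at 0.98 and RBM8A at 0.97 on the log2 scale. All lower calls stayed after centring and further genes of this list became lower, where the background was 19.1%.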

How the data were processed

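Per the labels' protocols, Trizol-extracted total RNA went into QuantSeq libraries, a kit that primes on the poly(A) tail. The authors deposited raw counts per gene symbol; the tools Bowtie2 and edgeR and the build hg19 are named, per the submitters' processing notes, with roles, versions, annotation, strand and multi-mapping not given in the sources used here. Rows of 1 symbol were summed (SRSF10 has 2 rows). Libraries were scaled by TMM in edgeR 4.0.16 (R 4.3.3), and log2 ratios used a pseudocount of 1 CPM and a mean of at least 30 counts. Folds were taken on scaled CPM with no pseudocount added. Without replicates no test was run. The calculation of the ratio and its interval was checked on simulated independent counts with known library sizes. The simulation held no amplification, variation between libraries or estimated scaling, so it does not show that the intervals hold for these libraries. All members may be named; from each other list, up to 4 compared genes with the largest absolute log2 ratio are. MYC, cell markers, read-through genes and overlapping neighbours were named outside this rule. Members and lists were chosen with earlier results of these data known. 3' GC content comes from GENCODE 29 (GRCh38) for 11139 compared symbols (94.6%), centred in 20 bins; as the counts were made on hg19, no gene coordinates are printed beyond the promoter windows. Protein sequences were not used here. Alternatives were other scalings (DESeq2 1.42.0 size factors among them), pseudocounts, count limits, thinning of the control library, the top row of each symbol, a 2-fold limit and 3' GC centring. Python 3.11.15, pandas 2.3.3, scipy 1.17.1 and matplotlib 3.10.9 were used.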

Additional observations from a re-analysis of the deposited data

How the results depend on the processing

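The number of members called at 1.5-fold was 1 higher and between 9 and 14 lower under every alternative at that limit. At a 2-fold limit it was 0 higher and 6 lower. With 3' GC centring 9 of 34 members were lower, against 19.1% of all symbols, as 4 calls ended and 1 was added. Under total-count scaling 14 of 34 were lower, against 27.7% of all symbols. With no count limit it was 14 of 41, including members with few counts. The share of all symbols was not computed without the limit, so this count has no background. Total-count scaling gave medians of -0.70 (hnRNP) and -0.42 (SRSF) and log2 ratios of the summed levels of -0.62 and -0.32, against -0.47 and -0.17 with TMM. The hnRNP median was -0.39 with a pseudocount of 5, -0.34 at a mean of at least 10 counts, -0.30 with no count limit and -0.35 with 3' GC centring, which took the SRSF median to -0.049. Leaving out the pseudogene names, or summing HNRNPA1 with HNRNPA1P10, was chosen after seeing the data and gave 11 and 12 lower members. No called member changed sign. No paired analysis was possible because each group has 1 library. At this depth counting error limits chiefly the members with few counts, such as HNRNPA1, HNRNPLL and HNRNPA3P1.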
